A study of Mus musculus with 6 samples.

Results

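The HOX, MEIS and PBX homeobox genes were followed in mouse acute promyelocytic leukemia (APL) progenitors and in normal myeloid progenitors (MPs). Members were taken by name, as every row of the expression table named for a gene of HOX clusters A to D, for a MEIS gene or for a PBX gene. This gave 25 of the 16440 genes in the table: 18 HOX genes, 3 MEIS genes and 4 PBX genes. By cluster, 9 HOX rows belonged to cluster A, 7 to cluster B, 2 to cluster C and 0 to cluster D. RefSeq lists 39 mouse HOX genes, and the 21 without a row (2 of cluster A, 3 of B, 7 of C and 9 of D) were not analysed here. All counts, sums and shares below are over 23 of the members: 17 HOX genes (8 of cluster A, 7 of B and 2 of C), 3 MEIS genes and 3 PBX genes.

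RNA was sequenced from 6 libraries of sorted mouse cells on the FVB N/J strain, 3 in each group. The normal group, MP, consisted of bone marrow (BM) cells sorted as Lin-Sca-1-c-Kit+, a gate that lacks mature lineage markers and the stem cell antigen Sca-1 and carries the receptor c-Kit. The leukemic group, APL, consisted of c-Kit+ cells marked with GFP. They derived from mice in which the human MRP8 promoter, active in myeloid cells, drives the PML/RARα fusion, were labelled with the GFP retrovirus MigR1 and were expanded by transplantation into mice of the same strain. The groups therefore differed in the fusion, the retroviral label, the passage through recipients and the gate, since Lin and Sca-1 are named for the MP sort alone. The labels gave no age or treatment, and although the design names biological replicates, nothing states that each library came from a separate mouse or transplant, so p-values measure the spread between these libraries. Total fragments ranged from 22976905 to 26932327 in the MP libraries and from 20608715 to 28382785 in the APL libraries.

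HOX genes encode homeodomain transcription factors that lie in ordered clusters and carry a paralog number by their place in the cluster. In blood, genes of clusters A and B are active in stem cells and early progenitors and are turned down as cells mature, and Hoxa9 together with Meis1 is a well known driver of leukemia in mice, above all downstream of MLL fusions. MEIS and PBX proteins belong to the TALE class of homeodomain factors. PBX proteins bind DNA together with HOX proteins, and MEIS proteins bind PBX proteins and hold them in the nucleus. APL is a subtype of acute myeloid leukemia whose cells are arrested at the promyelocyte stage.

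Start site sequences are shown for Hoxa9, Meis1 and Meis2, the members with the largest log2 changes, and for Hoxb4 and Hoxa2, the first with a retinoid receptor match and the second with matches to the motifs of the TALE and HOX factors themselves. Each runs 5′ to 3′ from 250 bases before to 50 bases after a start site in RefSeq (GRCm38.p6), and capitals mark a motif match on either strand.
Hoxa9, chr6:52227321-52227620, minus strand: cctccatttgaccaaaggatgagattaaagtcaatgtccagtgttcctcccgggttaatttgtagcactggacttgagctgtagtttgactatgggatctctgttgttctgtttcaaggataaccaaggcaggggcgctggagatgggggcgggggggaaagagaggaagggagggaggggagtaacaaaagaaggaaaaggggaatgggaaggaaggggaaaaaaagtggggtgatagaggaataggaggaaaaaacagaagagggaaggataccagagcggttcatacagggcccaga
Meis1, chr11:19018920-19019219, minus strand: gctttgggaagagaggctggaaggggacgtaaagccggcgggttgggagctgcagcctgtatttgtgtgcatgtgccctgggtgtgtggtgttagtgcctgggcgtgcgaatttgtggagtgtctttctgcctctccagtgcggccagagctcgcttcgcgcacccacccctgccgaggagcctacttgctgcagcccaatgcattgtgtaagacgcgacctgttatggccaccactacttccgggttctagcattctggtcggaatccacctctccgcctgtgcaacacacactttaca
Meis2, chr2:116064570-116064869, minus strand: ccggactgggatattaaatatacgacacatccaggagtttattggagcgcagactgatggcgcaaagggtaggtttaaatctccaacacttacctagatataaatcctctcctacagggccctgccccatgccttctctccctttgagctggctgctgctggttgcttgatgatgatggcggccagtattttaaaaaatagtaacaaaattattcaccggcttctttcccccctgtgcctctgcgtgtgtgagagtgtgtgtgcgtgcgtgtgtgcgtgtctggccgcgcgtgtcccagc
Hoxb4, chr11:96318017-96318316, plus strand: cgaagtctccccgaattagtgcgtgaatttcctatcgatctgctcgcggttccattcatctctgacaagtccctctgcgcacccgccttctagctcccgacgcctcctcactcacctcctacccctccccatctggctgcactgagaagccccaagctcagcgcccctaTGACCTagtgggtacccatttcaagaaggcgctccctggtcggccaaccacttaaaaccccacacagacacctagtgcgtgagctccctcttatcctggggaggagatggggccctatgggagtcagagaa
Hoxa2, chr6:52164782-52165081, minus strand: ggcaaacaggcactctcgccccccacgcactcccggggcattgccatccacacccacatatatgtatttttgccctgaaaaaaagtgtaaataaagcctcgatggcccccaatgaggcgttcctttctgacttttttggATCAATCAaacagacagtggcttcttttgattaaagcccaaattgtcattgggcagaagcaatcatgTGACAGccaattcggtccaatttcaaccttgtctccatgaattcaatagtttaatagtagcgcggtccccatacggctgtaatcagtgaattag
RefSeq promoters were at hand for 14 of these 23 members, with 15 start sites, since Hoxa10 had more than 1. The motifs searched on both strands were TGACAG (bound by MEIS factors), TGATTNAT (bound by PBX and HOX together) and AGGTCA (the half-site of retinoid receptors). TGACAG was in the promoters of 2 members, Hoxa2 and Hoxa3, and in 19.2% of all 32851 promoters of this length. TGATTNAT was in that of Hoxa2 only among these 14 members, and in 3.22% of all promoters. AGGTCA was in those of Hoxa5, Hoxb4 and Hoxc4, and in 16.3% of all promoters. In Hoxa2 the TGATTNAT match lay at position -111 relative to the start site on the other strand, read as ATCAATCA in the sequence above. The TGACAG match of Hoxa2 began at -44, without overlap. In Hoxb4 the AGGTCA match lay at -81, also on the other strand, read as TGACCT in the sequence above. Hoxa9, Meis1 and Meis2, which changed most, held none of these letters in this window. The 15 member promoters had a median of 15 CpG dinucleotides against 7 over all promoters, and that of Hoxa9 had 4.

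HOX transcripts were almost lost from the APL libraries. Of the 17 HOX genes, 11 were lower in APL than in MP and 1, Hoxb13, was higher. The other 5 (Hoxb5, Hoxb6, Hoxb9, Hoxc4 and Hoxc8) were near absent in both groups and could not be tested. Near absent means at most 3 fragments in each library of a group, the limit that a count of 0 allows, and in APL this held for 16 of the 17 HOX genes. A gene was called lower or higher at an adjusted p under 0.05 over all 14595 genes tested and a fold change over 1.5. By the same rule 24.4% of all genes tested were lower and 21.7% higher, 46.1% in all. The groups did not overlap for 12 of the 12 HOX genes tested, and they did not overlap for 70.9% of all genes, with APL below MP for 39.8% and above it for 31.1%. All 11 HOX genes called lower were near absent in APL. Of them 10, all but Hoxb4, entered the test only through their MP values, and Hoxb13 entered it only through its APL values. These counts therefore describe the members and are no independent evidence. The median log2 fold change (APL minus MP) was -5.22 over the 12 HOX genes, with a range of -7.52 to 5.16, and -0.10 over all genes tested. In these bulk samples, fewer cells of a type and less RNA per cell cannot be told apart.

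**Figure D1:**
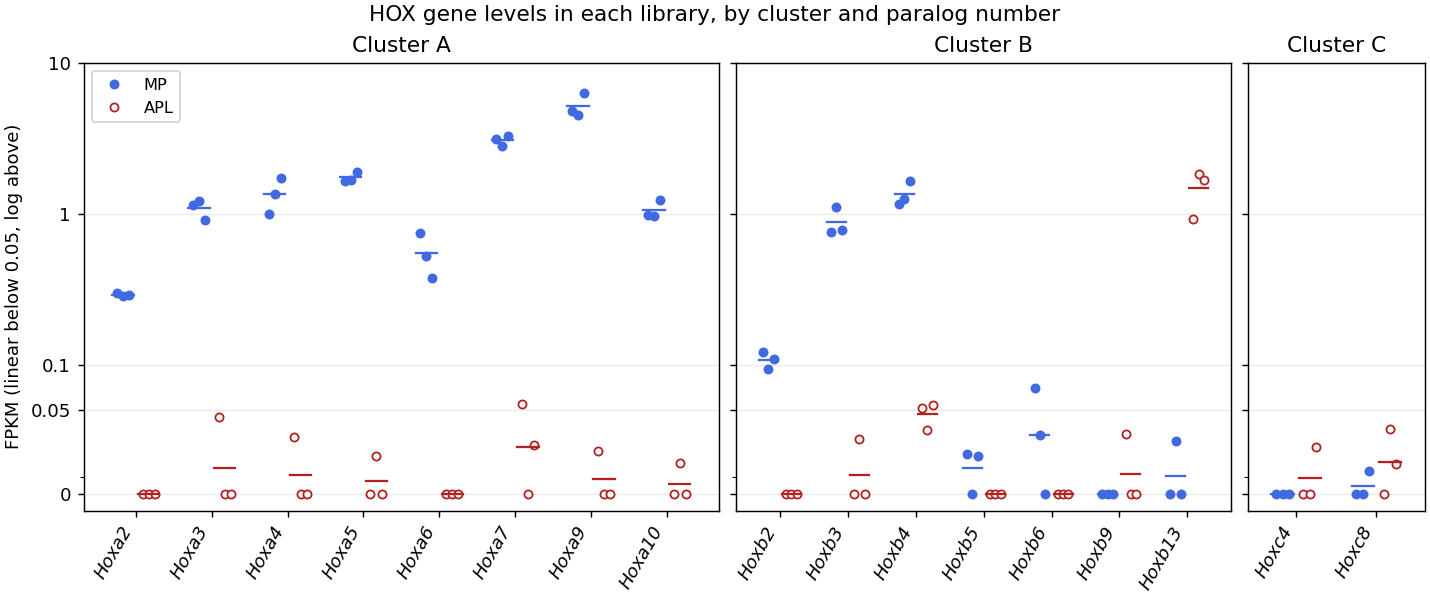
Level of each HOX gene in each library in FPKM (fragments scaled by transcript length and library size), on an axis that is linear below 0.05 and logarithmic above. Filled circles are the 3 MP libraries, open circles the 3 APL libraries and short lines the group means. Every cluster A gene shown was above its APL values in all MP libraries, and Hoxb13 was the HOX gene with APL values near or above 1 FPKM.

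Cluster A, on chromosome 6, carried most of the HOX signal of the normal progenitors. Summed over its 8 genes, the level was 13.8, 13.4 and 16.1 FPKM across the MP libraries, against 0.160, 0.0408 and 0.0290 FPKM across the APL libraries. The means were 14.4 ± 1.46 and 0.0767 ± 0.0727 FPKM (SD, n = 3 each), a ratio of 188. The APL sum rests on few fragments, and the ratio was 413 without APL library 1, the highest of them, and 143 to 195 without any other library. All 8 genes were called lower, against 24.4% of all genes tested, with a median log2 fold change of -5.36 and a range of -7.52 to -2.82. All 8 entered the test only through their MP values, so this count is no independent evidence. MP library 3 was the highest of the MP libraries for 5 of the 8.

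Hoxa9 (chr6:52224054-52227370), which promotes the expansion and self-renewal of progenitors, was the highest HOX gene of the MPs. The MP libraries held 232, 214 and 330 fragments of it, in the order 1 to 3, and the APL libraries 1, 0 and 0. On the scale of the test, which adjusts each library by a factor of its own (scaled fragments), this was 240 ± 50.7 against 0.393 ± 0.680 (SD, n = 3 each). The MP libraries spread by less than their distance to the APL libraries, where a single fragment was found. The log2 fold change was -7.52 (SE 0.37, adjusted p = 2.9e-07), and 0.206% of all genes tested decreased more. From the summed fragments the ratio was 676, with an exact 95% interval of 121 to 26749. This and the intervals below cover counting error only. In MP, Hoxa9 made up 36.1% ± 2.96 of the cluster A level and 30.9% of the level of all HOX genes.

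Its neighbours Hoxa7 and Hoxa10, which are also tied to myeloid progenitors and leukemia, followed the same pattern at lower levels. Hoxa7 had 142, 124 and 162 fragments in the MP libraries and 2, 0 and 1 in the APL libraries (log2 fold change -6.09, SE 0.43, adjusted p = 2.7e-06). Hoxa10 had 52, 53 and 70 fragments in MP and 0, 1 and 0 in APL (log2 fold change -5.47, SE 0.35, adjusted p = 1.5e-06). Neither gene overlapped between the groups. The ratio from summed fragments was 124 (42.3 to 605) for Hoxa7 and 153 (27.0 to 6059) for Hoxa10.

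Hoxa3, Hoxa4, Hoxa5 and Hoxa6 share 1 locus in the table (chr6:52169062-52213597) with the noncoding RNA 2700086A05Rik, so fragments could be divided among these 5 genes and each value is uncertain to that extent. These genes pattern the neck and trunk of the embryo. Hoxa5 had 68, 68 and 83 fragments in MP and 0, 1 and 0 in APL (log2 fold change -5.80, SE 0.34, adjusted p = 9.1e-07). Hoxa4 had 37, 48 and 68 in MP and 1, 0 and 0 in APL (log2 fold change -5.18, SE 0.41, adjusted p = 5.8e-06). Hoxa3 had 64, 65 and 53 in MP and 2, 0 and 0 in APL (log2 fold change -5.26, SE 0.49, adjusted p = 1.6e-05). Each of these genes was present in all MP libraries and held fragments in only 1 APL library. Their ratios were 191 (33.9 to 7573) for Hoxa5, 133 (23.6 to 5301) for Hoxa4 and 79.3 (21.6 to 660) for Hoxa3. Hoxa6 had 9, 6 and 5 fragments in MP and 0 in each APL library (log2 fold change -2.82, SE 0.37, adjusted p = 1.6e-04). Since all its APL values were 0, its fold is a bound, at least 1.90-fold lower against 3 fragments per library. The shared noncoding RNA 2700086A05Rik, the only listed noncoding RNA of the clusters with a row, fell as well, from 6.47 ± 2.27 scaled fragments to 0 (log2 fold change -2.86, adjusted p = 1.6e-04). This RNA, too, entered the test only through its MP values. It shares the locus of these HOX genes, so its call is no separate evidence.

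Toward the other end of the cluster, Hoxa2, a patterning gene of the hindbrain, was low in MP and listed at 0 in every APL library. It had 13, 12 and 13 fragments in MP (log2 fold change -3.67, SE 0.32, adjusted p = 1.1e-05, at least 3.59-fold lower). The MP libraries agreed closely and each lay above the limit of 3 fragments. Where a group was at 0, the fitted log2 fold change depends on the value of 1 added before the logarithm and is no bound. The library kit did not mark strand, so Hoxa10 and the overlapping Gm52902 cannot be told apart.

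Cluster B, on chromosome 11, split between genes lost from APL and Hoxb13. Summed over its 7 genes, the level was 2.41 ± 0.231 FPKM in MP and 1.56 ± 0.481 FPKM in APL, a ratio of 1.55. Without Hoxb13 it was 2.40 ± 0.225 against 0.0707 ± 0.0167 FPKM, a ratio of 33.9. Of the 4 genes tested, 3 were lower and 1 was higher, against 24.4% and 21.7% of all genes tested. Hoxb2 and Hoxb3 entered the test only through their MP values and Hoxb13 only through its APL values. These counts are therefore no independent evidence.

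Hoxb4, known for expanding stem cells when it is overexpressed, had 85, 88 and 130 fragments in MP and 3 in each APL library (log2 fold change -4.45, SE 0.27, adjusted p = 1.1e-06). In scaled fragments this was 93.6 ± 20.7 against 3.28 ± 0.594, a ratio of 28.5. It was the HOX gene called lower that was found in every APL library, though at the limit of 3 fragments. Hoxb3, next to it, had 65, 92 and 71 fragments in MP and 0, 3 and 0 in APL (log2 fold change -5.53, SE 0.51, adjusted p = 1.5e-05), with a ratio of 66.2 (22.4 to 324). Without APL library 2, which held these 3 fragments, its log2 fold change was -6.15. Hoxb2, a hindbrain gene, had 4, 3 and 4 fragments in MP and 0 in each APL library (log2 fold change -2.13, SE 0.36, adjusted p = 7.1e-04, at least 1.04-fold lower), so its MP values lay close to the limit. In MP, Hoxb4 made up 56.2% and Hoxb3 36.6% of the cluster B level. Hoxb4 lies within the RefSeq extent of Hoxb3, and Hoxb2 and Hoxb3 overlap the antisense Hoxb3os, so these values are uncertain.

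Hoxb13 (chr11:96194361-96196599), a posterior HOX gene best known from the prostate and the hindgut, was the HOX gene that rose in APL. Its fragments numbered 0, 1 and 0 in the MP libraries and 24, 65 and 42 in the APL libraries. In scaled fragments this was 0.317 ± 0.550 against 45.5 ± 15.1 (SD, n = 3 each). The APL libraries differed among themselves, with library 1 the lowest, but each was far above the MP libraries. Hoxb13 entered the test only through these APL values, so its call is no independent evidence of a rise. The log2 fold change was 5.16 (SE 0.41, adjusted p = 6.2e-06), the ratio from summed fragments was 150.3 (26.5 to 5981), and 1.32% of all genes tested increased more. Hoxb13 made up 94.9% ± 3.04 of the cluster B level and 78.8% to 92.9% (mean 88.1%) of the level of all HOX genes in APL. It lies apart from the rest of cluster B, 74.7 kb from Hoxb9, the nearest member.

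Hoxb5, Hoxb6 and Hoxb9 each held at most 2 fragments in any library. Hoxb5 and Hoxb6 had fragments in MP only and Hoxb9 in APL library 1 only, all within the limit, so no difference was detectable at this depth. Cluster C, on chromosome 15, was near absent in both groups. Hoxc4 had 1 fragment in APL library 3 and 0 elsewhere, and Hoxc8 had 0, 0 and 1 in MP and 0, 3 and 1 in APL. Their sum was 0.00444 FPKM in MP and 0.0281 FPKM in APL, and no fold is given because both groups were under the limit. No cluster D gene had a row.

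**Figure D2:**
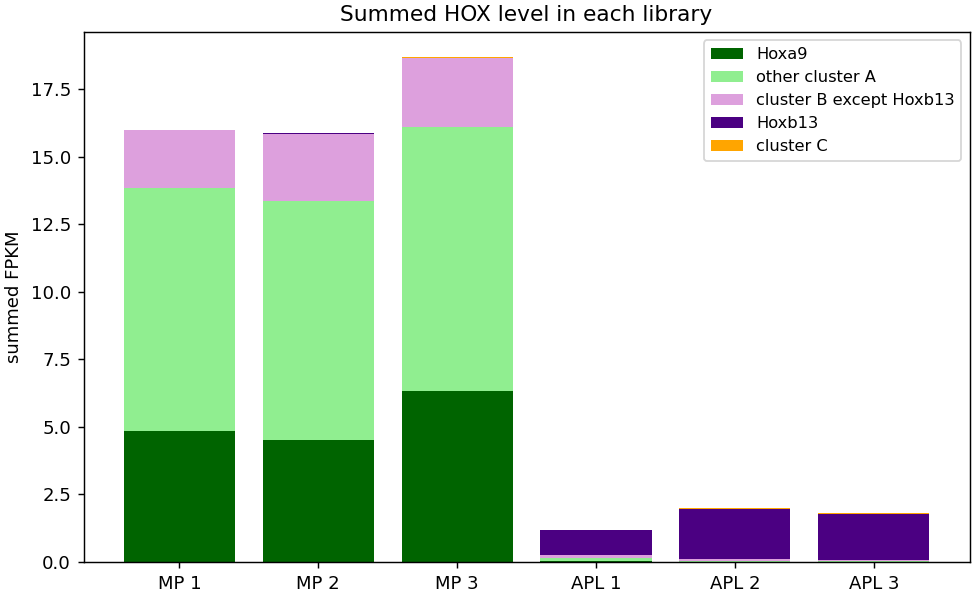
Summed level of the HOX genes in each library in FPKM, stacked by Hoxa9, the other cluster A genes, cluster B without Hoxb13, Hoxb13 and cluster C. The MP libraries summed to 16.0, 15.9 and 18.7 FPKM, mostly cluster A, and the APL libraries to 1.17, 2.00 and 1.81 FPKM, mostly Hoxb13.

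Over the 17 HOX genes the summed level was 16.8 ± 1.59 FPKM in MP and 1.66 ± 0.434 FPKM in APL, a ratio of 10.1. Without Hoxb13 it was 16.8 ± 1.6 against 0.176 ± 0.0634 FPKM, a ratio of 95.8.

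Most of the genes that flank the clusters were not called, and neither were most of all genes tested, of which 46.1% were called. Skap2, the neighbour on the Hoxa2 side of cluster A, measured 2119 ± 203 scaled fragments in MP and 2362 ± 52.1 in APL (log2 fold change 0.16, SE 0.08, adjusted p = 0.11). Hibadh, on the Hoxa13 side, was lower by less than the fold threshold (log2 fold change -0.48, adjusted p = 7.6e-04). Around cluster B, Skap1 and Calcoco2 had means under 3 scaled fragments in both groups and were not called, and a difference was hardly detectable at this depth. Of the genes beside cluster C, Smug1 gave 0.16 and was not called, and Calcoco1 rose, with 655 ± 162 scaled fragments in MP and 1558 ± 150 in APL (log2 fold change 1.27, adjusted p = 1.0e-04). Chromosome 15, where Calcoco1 lies, had a median log2 fold change of 0.46 over its 563 genes tested. The part of the chromosome in the rise of Calcoco1 was not tested. Mtx2, beside cluster D, gave -0.03 and was not called. Of 21 flanking genes tested, 2 were lower, 3 higher and 16 not called, with a median of 0.09. Among all genes tested, 24.4% were lower and 21.7% higher. The others called with over 100 scaled fragments on average were Cbx1 (-1.14) and Snx10 (-0.83), both lower, and Snx11 (1.02) and Lnp (0.64), both higher. Lnp gave 0.49 without MP library 3 and was then not past the fold threshold, and Skap1 was called lower (-1.53) without MP library 1. Nfe2 was called higher (0.66) without MP library 3. Nfe2l2 was called lower (-0.60 to -0.59) without MP library 2, APL library 2 or APL library 3.

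The MEIS gene with the highest level differed between the groups, and the summed level was lower in APL. The summed MEIS level was 8.74 ± 1.32 FPKM in MP and 1.20 ± 0.0407 FPKM in APL. Meis1 made up 98.6% of it in MP, and Meis2 made up 95.5% of it in APL.

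Meis1 (chr11:18880428-19018969), needed for stem cell maintenance and the classic partner of Hoxa9, was counted with 719, 812 and 989 fragments in the MP libraries but only 2, 7 and 3 in the APL libraries. In scaled fragments this was 779 ± 110 against 4.04 ± 1.88 (SD, n = 3 each), a ratio of 193. It was thus found in every APL library at a trace of the MP level, with no overlap. The log2 fold change was -7.33 (SE 0.28, adjusted p = 8.0e-08), and 0.329% of all genes tested decreased more. Gm16141 overlaps the locus, and without strand its fragments cannot be told apart from those of Meis1.

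Meis2 (chr2:115861264-116065058), known from the development of the heart, limbs and neural crest, went the opposite way. It had 1, 1 and 0 fragments in MP and 124, 175 and 122 in APL. In scaled fragments this was 0.630 ± 0.546 against 149 ± 2.97, so that the APL libraries agreed closely once scaled. Meis2, too, entered the test only through these APL values, so its call is no independent evidence of a rise. The log2 fold change was 6.59 (SE 0.33, adjusted p = 3.1e-07), the ratio from summed fragments was 242 (66.4 to 2001), and 0.637% of all genes tested increased more. In APL, Meis2 at 1.15 ± 0.0264 FPKM stayed under the level of Meis1 in MP, 8.61 ± 1.24 FPKM.

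Meis3, the least studied of the family, had 5, 1 and 14 fragments in MP and 0, 0 and 1 in APL. The groups overlapped at 1 fragment and the MP libraries spread widely. It passed the threshold (log2 fold change -2.03, SE 0.70, adjusted p = 0.029), but 1 library moved its value. Its log2 fold change was -1.35 without MP library 3, where the call was lost (adjusted p = 0.091), and -2.75 without MP library 2. The call was also lost at -1.98 without MP library 1 (adjusted p = 0.075), at -1.83 without APL library 1 or 2 (adjusted p = 0.089 and 0.094) and at -1.47 after quantile normalization (adjusted p = 0.11). The two-sided exact permutation test gave p = 0.2. For every other member tested it gave 0.1, the smallest p that 3 libraries against 3 allow.

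**Figure D3:**
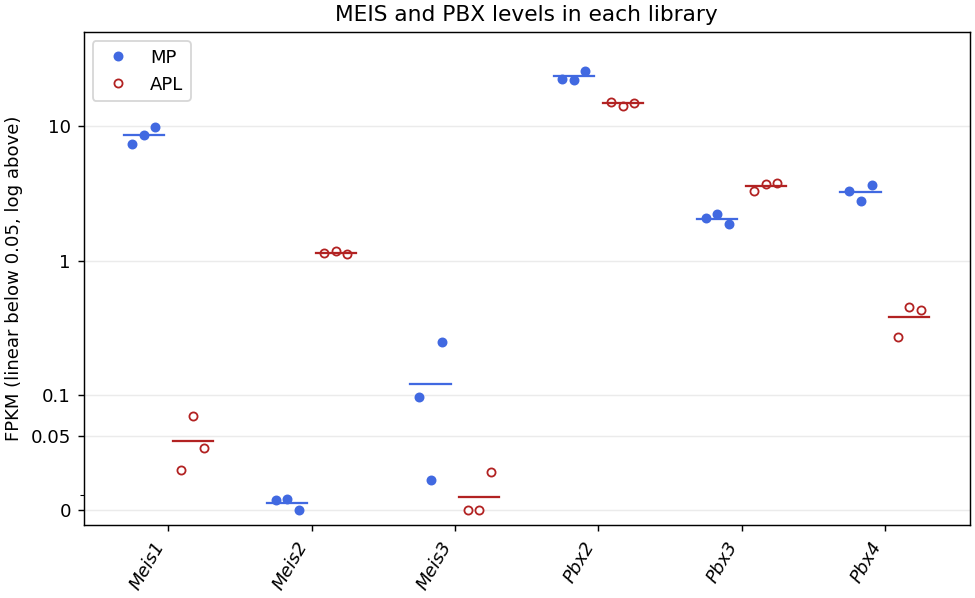
Level of the MEIS and PBX genes in each library in FPKM, on an axis that is linear below 0.05 and logarithmic above. Filled circles are the 3 MP libraries, open circles the 3 APL libraries and short lines the group means. Meis1 and Pbx4 were lower in APL, Meis2 was higher there but below the MP level of Meis1, and Pbx2 was the highest of these genes in both groups.

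All 3 PBX genes were called, and Pbx2 held most of their signal in both groups. Their summed level was 28.8 ± 2.30 FPKM in MP and 18.8 ± 0.427 FPKM in APL, a ratio of 1.53. Of the 3 genes, 2 were lower and 1 was higher, and no PBX gene overlapped between the groups. Over all genes tested 46.1% were called and the groups did not overlap for 70.9%, so these counts do not set the PBX genes apart.

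Pbx4, known mainly from the testis, had 124, 101 and 148 fragments in MP and 8, 18 and 12 in APL, or 115 ± 18.7 against 13.3 ± 3.36 scaled fragments. Its log2 fold change was -3.04 (SE 0.26, adjusted p = 8.8e-06), a ratio of 8.68. Its share of the PBX level was 11.2% in MP and 2.05% in APL. Pbx4 lies on chromosome 8, where the median over 778 genes tested was 0.48. The part of the chromosome in the level of Pbx4 was not tested.

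Pbx2, the widely expressed member, had 1751, 1690 and 2191 fragments in MP and 965, 1231 and 895 in APL, or 1742 ± 204 against 1103 ± 34.9 scaled fragments. The change was small, 1.58-fold lower (log2 fold change -0.65, SE 0.09, adjusted p = 2.2e-04). Without MP library 3, the highest, it was -0.56 and no longer past the fold threshold. Pbx2 made up 81.6% of the PBX level in MP and 78.8% in APL.

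Pbx3, a partner of HOXA9 in leukemia with MLL fusions, was the PBX gene that rose. It had 149, 156 and 141 fragments in MP and 186, 284 and 204 in APL, or 138 ± 10.7 against 239 ± 17.5 scaled fragments. The increase was 1.73-fold (log2 fold change 0.78, SE 0.13, adjusted p = 6.7e-04), and its share of the PBX level was 7.21% in MP and 19.2% in APL. With the HOX genes, 15 of the 18 members tested were lower and 3 were higher (Hoxb13, Meis2 and Pbx3). Of all genes tested, 24.4% were lower and 21.7% higher.

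**Figure D4:**
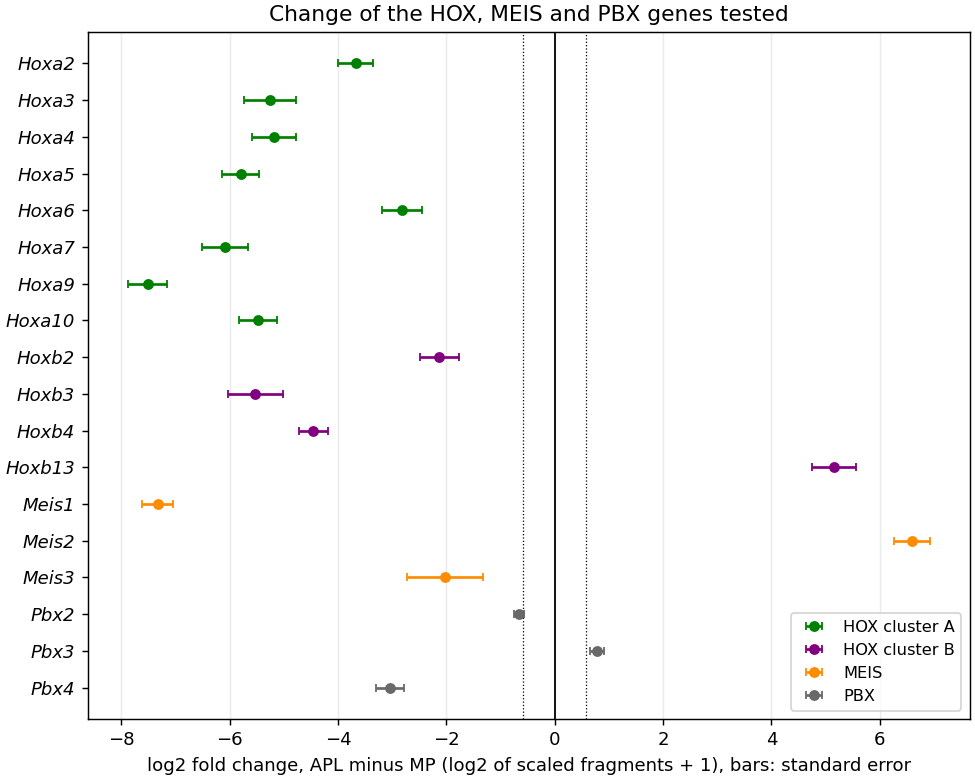
Log2 fold change (APL minus MP, on log2 of scaled fragments plus 1) of the 18 members tested, with standard errors as bars and dotted lines at a 1.5-fold change. Most HOX genes, Meis1, Meis3, Pbx2 and Pbx4 lie left of 0, and Hoxb13, Meis2 and Pbx3 lie right of 0; values of genes at or near 0 in a group depend on the value added before the logarithm.

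The order of levels differed between the groups. In MP the mean level fell from Pbx2 at 23.5 FPKM to Meis1 at 8.61 and Hoxa9 at 5.23. Pbx4 (3.23) and Hoxa7 (3.08) came next and overlapped each other. From Pbx3 (2.06) through Hoxa5, Hoxa4, Hoxb4, Hoxa3 and Hoxa10 to Hoxb3 (0.882), each gene overlapped the next. Hoxa9 stood near the middle of the table, since 49.2% of its genes had a higher mean in MP. In APL only Pbx2 (14.8 FPKM), Pbx3 (3.61), Hoxb13 (1.49) and Meis2 (1.15) had a mean of at least 1 FPKM among the members, the last pair overlapping. Pbx4 (0.385) followed, and the rest were at most 0.0479 FPKM.

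Among the other TALE genes, Tgif2, a repressor of TGFβ signalling, fell, with 398 ± 9.12 scaled fragments in MP and 20.4 ± 8.54 in APL (log2 fold change -4.32, adjusted p = 2.9e-06). Pknox1, which encodes the PBX partner PREP1, measured 1211 ± 61.1 in MP and 1141 ± 44.7 in APL (log2 fold change -0.09, adjusted p = 0.33). Tgif1 gave 0.37 and was not past the fold threshold, and Pknox2 was called higher (1.04) from 1.86 to 4.66 scaled fragments, close to the limit. Of the Iroquois and Mohawk genes, Irx2, Irx5 and Mkx had rows and each was near absent in both groups, although Irx5 passed the test (1.13, adjusted p = 0.045). Pknox2 and Irx5 each lost the call when any 1 library other than MP library 1 was left out, with limma adjusted p of 0.052 to 0.094 and 0.055 to 0.12. Of the caudal genes, upstream regulators of HOX clusters, Cdx4 had a row and was near absent in both groups.

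Genes of the MLL and menin complex and of the DOT1L machinery, which maintain HOX transcription, were present in both groups. Of 16 tested, 5 were lower, 2 higher and 9 not called, with a median log2 fold change of -0.38. Over all genes tested 46.1% were called, 24.4% lower and 21.7% higher, so these counts do not set the list apart. Mll1 itself measured 4258 ± 1195 scaled fragments in MP and 3056 ± 725 in APL (log2 fold change -0.46, adjusted p = 0.099). It was called lower without MP library 3 (-0.71) and without APL library 1 (-0.65). The lower genes were Mllt3 (-2.33), Mllt1 (-1.18), Men1 (-0.74), Dot1l (-0.66) and Psip1 (-0.61), the first pair encoding readers of acetylated histones that recruit elongation factors, and Psip1 the factor that links MLL to chromatin. The higher genes were Ash2l (1.08), a core subunit, and Aff1 (0.75), an elongation scaffold.

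Of 18 genes tied to HOXA9 and MEIS1 in leukemia models, 10 were lower, 4 higher and 4 not called, with a median of -1.14. The shares over all genes tested were 24.4% lower and 21.7% higher. Trib2, a pseudokinase, fell, with 1937 ± 204 scaled fragments in MP and 5.36 ± 0.742 in APL (log2 fold change -8.25, adjusted p = 5.6e-09). Sox4 gave -6.82, Hlf, a stem cell factor, -6.51, and Cd34, a surface antigen of progenitors, -6.31. The list therefore moved in both directions.

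Markers of other cell types moved with the lower members. Beside the counts that follow, 24.4% of all genes tested were lower and 21.7% higher. Summed erythroid markers ranged from 1842 to 2389 FPKM in MP and from 13.5 to 24.4 FPKM in APL, with 9 of 9 genes tested lower. Summed megakaryocyte markers ranged from 73.5 to 111 FPKM in MP and from 3.77 to 5.76 in APL, with 7 of 9 lower. Summed stem cell markers ranged from 15.9 to 23.3 FPKM in MP and from 3.52 to 4.25 in APL, with 8 of 9 lower and 1, Ly6a, higher; the list also held Hoxb5, left out of the sum. Ly6a (0.68) lost its call without MP library 1 and without each APL library in turn (0.45 to 0.76). Ly6a encodes Sca-1, the antigen that the MP gate excluded and that is not named for the APL sort. Its direction is therefore no independent evidence. The MP libraries thus held transcripts of several lineages at levels that the APL libraries lacked. Lymphoid markers (20.5 to 29.3 FPKM against 0.455 to 0.733, 6 of 7 lower), monocyte and dendritic markers (75.9 to 96.8 against 9.97 to 12.4, 6 of 8 lower) and mast cell and basophil markers (116 to 142 against 53.1 to 61.7, 5 of 7 lower and 1 higher) pointed the same way. Granule markers of promyelocytes and neutrophils were high in both groups, at 9514 to 11822 FPKM in MP and 24012 to 28644 in APL, with 3 of 10 higher and 2 lower. The part of these cell types in the lower HOX and Meis1 levels was not tested.

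Beside the rise of Hoxb13 and Meis2, stromal and endothelial markers summed to 5.63 to 7.47 FPKM in MP and 2.10 to 2.40 in APL. Of 9 tested, 6 were lower and 2 higher, against 24.4% and 21.7% of all genes tested. The higher genes were Col1a1 (4.16) and Lepr (2.97), which are named here because they went against the rest of the list. Of the 10 listed genes with a row, 5 were near absent in APL and 2 in MP, with Dcn in both counts. The APL cells were taken as GFP-labelled and c-Kit+. The part of stromal cells in the rise was not tested.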

How the data were processed

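The authors deposited 1 table of 16440 genes and, for each of the 6 libraries, an FPKM value and an estimated fragment value. In the deposited table FPKM is relative to transcript length and library size. The other deposited value is a signal, fragments that were estimated and then rescaled within each library. What 1 fragment is worth was read from each library's smallest common step, 0.867 to 1.23, of which 86.3% to 88.9% of nonzero values were whole multiples within 0.01 fragment (wider at high values), too few for a count test, and fragments are printed rounded. The submitters' processing notes name CASAVA 1.8, TopHat2 2.0.6 and mm10, whereas STAR on mm9, HTSeq-count and DESeq2 stand in the paper's methods. The loci in the table follow GRCm38 and are printed counted from 1. RNA was prepared with a TruSeq kit that does not mark strand.

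All 6 libraries, grouped by their labels, were compared with limma 3.58.1 (R 4.3.3), using lmFit and trended eBayes. Input was log2(scaled fragments + 1) of the 14595 genes that reached 1 scaled fragment in 3 or more libraries, and p-values were Benjamini-Hochberg adjusted over all of them. The test was tested on simulated data. Fold changes are on this scale and understate the change of low genes. Where the lower group held 1 to 3 fragments in all, ratios came from summed fragments with exact 95% binomial intervals. Values of 2 members and of 1 list gene are not reported here. All other members are named, and of the accompanying lists up to 4 called genes with the largest changes and a mean of at least 100 scaled fragments, plus PREP, TGIF, MLL and menin genes and direct neighbours of the clusters. The remaining genes named were chosen after their values were seen. Members and lists were chosen with earlier results of these data known. Alternatives covered the pseudocount, filter, FPKM, scaling, replicate block, voom weights, thresholds and each library left out. Those for the accompanying lists and for ratios of summed levels were added after the data were seen. Figures were drawn with matplotlib 3.10.9.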

Additional observations from a re-analysis of the deposited data

How the results depend on the processing

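No member changed sign under any alternative. Of 283 log2 fold changes of the 18 members tested, over up to 16 alternatives at the same thresholds, 277 stayed on the same side of the threshold, and 16 members kept their call wherever one of these gave a value. The exceptions were Meis3, which lost its call under 5 alternatives, and Pbx2, which lost it without MP replicate 3. Without 1 library at a time, 11 HOX genes were lower (11 to 11) and 1 higher (1 to 1), while 2 to 4 MEIS and PBX genes were lower, against 4 with all libraries, the 2 being without MP replicate 3, and 2 were higher (2 to 2). At a fold change over 2 in place of 1.5, 3 MEIS and PBX genes were lower in place of 4 and 1 was higher in place of 2, since Pbx2 and Pbx3 changed by less. Hoxb2 and Meis3 gave no value in FPKM or at a minimum of 10 scaled fragments, nor did Hoxa6 at that minimum, so 10 and 9 HOX genes were lower there because fewer were tested. The 5 HOX genes near absent in both groups became 2 at a limit of 1 fragment and 7 at a limit of 10. Without its highest member, cluster A in MP summed to 9.19 FPKM in place of 14.4 and cluster B in APL to 0.0707 in place of 1.56.

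The size of a change depended on the scale. Hoxa9 ranged from -8.44 to -5.49, Meis1 from -7.63 to -5.90, Meis2 from 3.57 to 7.21 and Hoxb13 from 3.20 to 5.95. Scaling to the same total moved the median of all genes from -0.10 to -0.23. Whether the library numbers pair the samples could not be decided. Deviations of same-numbered libraries correlated at 0.26, -0.13 and 0.25 over 11002 genes, within the range of differently numbered ones (-0.46 to 0.36). With the number as a replicate block, 11 HOX genes were lower and 1 higher, and 4 MEIS and PBX genes were lower and 2 higher. Over the accompanying lists of regulators, partners and neighbours, the block gave 19 lower and 9 higher, against 19 and 11 without it. With 1 library left out these counts were 20 to 20 and 9 to 11. Depth limits the HOX genes of APL, where most libraries held 0 to 3 fragments of a gene.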
